A study of Mus musculus with 6 samples.

Results

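The receptors and cochaperones through which steroid hormones act were examined in mouse uterine stromal cells with and without Pbrm1, a subunit of the SWI/SNF chromatin remodeler. They were 9 genes of the 54232 in the count table, chosen by name: the nuclear receptors Pgr, Esr1, Nr3c1 and Nr3c2, the membrane progesterone receptor components Pgrmc1 and Pgrmc2, the FKBP cochaperones Fkbp4 and Fkbp5, and the coactivator Ncoa2. RNA-Seq libraries were made from primary cells of 8- to 12-week-old females, pseudopregnant at day 4, and each group (WT and Pbrm1 cKO) had 3 libraries. Per the study's methods, 5 to 10 uterine horns were pooled and digested, and the cells were plated in charcoal-stripped serum for 4 hours and in fresh serum-containing medium for 2 hours before RNA was taken. The protocol in the labels gives this number of horns for WT, and the labels give the time as day 4 of pregnancy.

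Controls are labelled WT, but in the study's methods they are Pbrm1 fl/fl females. Pbrm1 cKO females were Pbrm1 fl/fl with 1 PR-IRES-cre allele, so Pbrm1 was deleted in cells that express the progesterone receptor. The Cre cassette sits in the Pgr gene itself. Any difference in Pgr between the groups therefore cannot be told apart from an effect of the modified allele, which the genotype given for controls does not include.

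Nuclear steroid receptors wait in the cytoplasm or nucleus in a complex with the chaperone HSP90. FKBP4 (FKBP52) and FKBP5 (FKBP51) compete for a place in that complex: FKBP4 favours hormone binding and progesterone receptor activity, and FKBP5 dampens the glucocorticoid receptor, whose hormone induces the Fkbp5 gene. In the uterus, stromal progesterone receptor and its FKBP4 cochaperone are required for implantation.

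The libraries held between 13253575 and 18338667 counts, which differ at most 1.38-fold. Pbrm1 itself was at 1354, 1385 and 1677 normalized counts in WT replicates 1 to 3 and at 397, 459 and 451 in Pbrm1 cKO (DESeq2 log2 change -1.76 ± 0.13 SE, adjusted p = 5.19e-40). A normalized count is the number of reads on a gene divided by the size factor of its library. Markers of stromal cells were present, with Vim at 33864 ± 2669 normalized counts (WT) and 28137 ± 941 (Pbrm1 cKO, SD of 3 libraries each), a fall of the structural gene vimentin (adjusted p = 0.0124) that was not called without Pbrm1 cKO replicate 2 or without replicate 3. Of 12 stromal markers, 5 fell and 1 rose, beside 15.2% of all tested genes called lower and 15.9% called higher. Their summed level per kilobase of exon was 18528 to 20795 in WT and 15305 to 16589 in Pbrm1 cKO, a 0.823-fold difference without overlap. Of 10 smooth muscle markers, 5 fell, while their summed level overlapped between groups (23346 to 23794 and 22502 to 23686). The libraries also held RNA of other cell types. All 12 leukocyte markers were higher in Pbrm1 cKO, and their summed level per kilobase of exon was 2826 to 6339 in WT and 25276 to 26890 in Pbrm1 cKO, a 5.05-fold difference. Lyz2 and Cd74, which myeloid and antigen-presenting cells express, rose by 2.25 and 3.05 on the log2 scale. Of 11 epithelial markers tested, 4 rose, against 15.9% of all tested genes, and 2 did without Pbrm1 cKO replicate 1 or without replicate 2. The summed level of the 12 epithelial markers overlapped between groups (1103 to 1789 in WT and 1707 to 1837 in Pbrm1 cKO). Krt18, the highest of them per kilobase, was 0.827-fold and not called. Of 10 endothelial markers, 1 rose and 2 fell, and 8 fell when WT replicate 1 was left out. Their summed level was 352 to 911 in WT and 296 to 323 in Pbrm1 cKO, a 0.448-fold difference without overlap. That library had the lowest leukocyte, epithelial and endothelial marker levels of the WT libraries. In bulk RNA, fewer cells of a type and less RNA per cell cannot be told apart. The study calls its replicates biological, and which animals went into each pool is not given in the sources used here, so p-values measure the spread between these preparations.

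Of the 9 genes, 8 could be tested. Nr3c1, Fkbp5 and Ncoa2 were higher in Pbrm1 cKO, where 15.9% of all 17474 tested genes were called higher. Pgrmc1 and Fkbp4 were lower, against 15.2% of all tested genes. In all 5 of 8 passed the threshold, beside 31.1% of all tested genes in either direction. In those 5 genes no Pbrm1 cKO library lay within the WT range, as was so for 48.6% of all tested genes. The median log2 fold change of the 8 genes was -0.06, and that of all tested genes was -0.00. The former was 0.061 without WT replicate 1, -0.15 without WT replicate 2 and -0.16 with a trend over gene length removed, so its sign was not resolved.

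**Figure D1:**
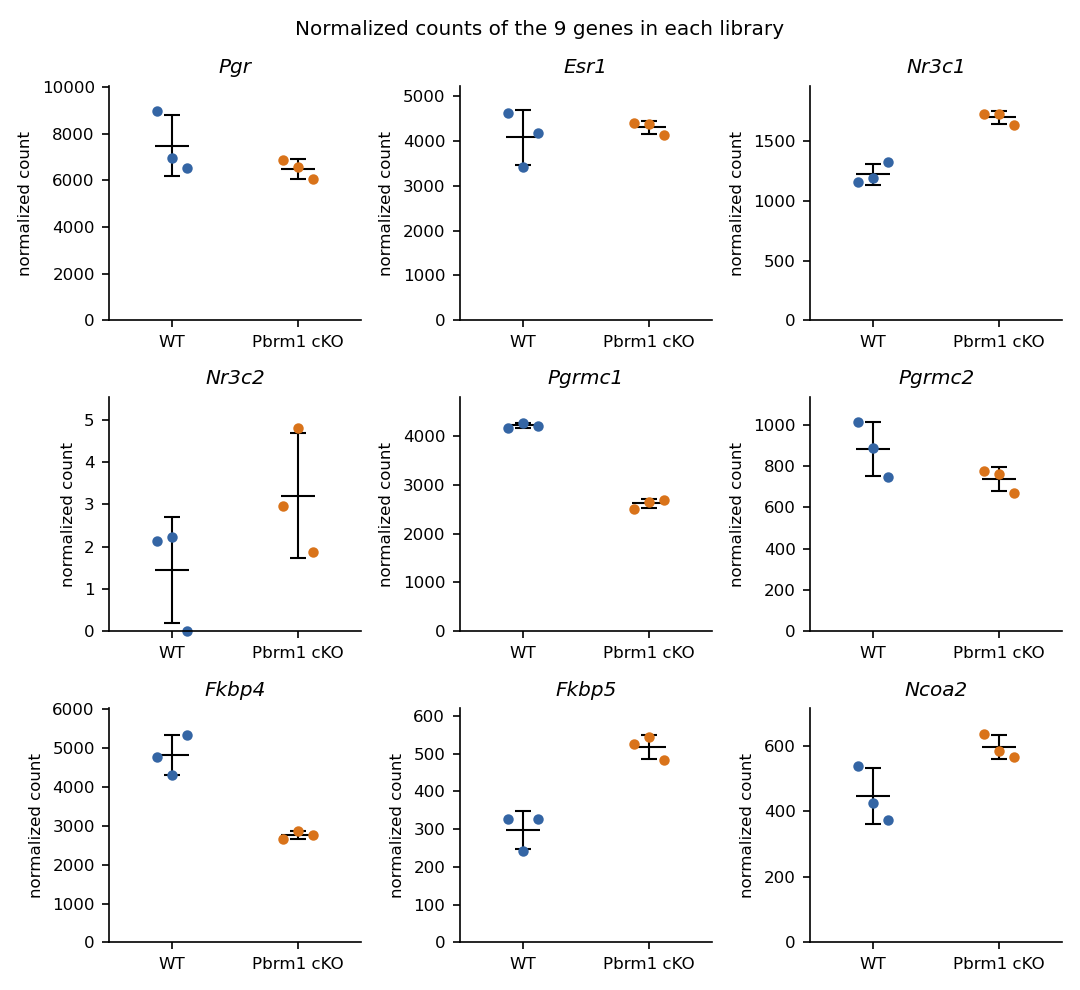
Normalized counts (vertical axes) of the 9 genes in each WT (blue) and Pbrm1 cKO (orange) library; horizontal bars are means and error bars SD of 3 libraries. Fkbp4 and Pgrmc1 lie lower and Fkbp5 and Nr3c1 higher in every Pbrm1 cKO library, whereas Pgr, Esr1 and Pgrmc2 overlap.

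The progesterone receptor gene Pgr (chr9:8899833-8968611, plus strand, GRCm38) had the highest level per kilobase of exon among the nuclear receptors. WT libraries 1 to 3 had 8976, 6947 and 6512 normalized counts, and Pbrm1 cKO libraries 1 to 3 had 6848, 6554 and 6041. WT replicate 1 was high, and the other libraries overlapped. The means were 7478 ± 1315 and 6481 ± 408 (SD, n = 3 each), and the log2 fold change was -0.21 with a 95% interval of -0.46 to 0.05 (DESeq2 adjusted p = 0.245). The interval allows a loss of up to 0.46 on the log2 scale. Without WT replicate 3 the log2 fold change was -0.30 (adjusted p = 0.0401), and with the trend over gene length removed it was -0.33 (adjusted p = 0.0409). In both of those fits Pgr was called lower, whereas without WT replicate 1 the log2 fold change was -0.055 and was not called.

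Esr1 (chr10:4611593-5005614, plus strand), which encodes estrogen receptor alpha, had normalized counts of 4621, 3424 and 4183 (WT) and of 4396, 4379 and 4136 (Pbrm1 cKO). The groups overlapped, and all Pbrm1 cKO libraries lay between the lowest and the highest WT library. Its log2 fold change was 0.08, with an interval of -0.16 to 0.32 (DESeq2 adjusted p = 0.697). The sign was negative without WT replicate 2 (-0.04) and with the length trend removed (-0.11). No change of Esr1 was therefore detected, and its direction was not resolved.

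Nr3c1, which encodes the glucocorticoid receptor, was the nuclear receptor that rose. It was at 1153, 1192 and 1321 normalized counts in WT and at 1726, 1727 and 1634 in Pbrm1 cKO. Every Pbrm1 cKO library was above every WT library. The means were 1222 ± 87.8 and 1696 ± 53.1 (SD, n = 3 each), a 1.39-fold difference (DESeq2 log2 change 0.47 ± 0.10 SE, adjusted p = 1.56e-05). When each library was left out in turn, the log2 fold change stayed between 0.43 and 0.53 and the call was kept. Leukocytes also express Nr3c1. Their markers rose with it between the groups. Within the groups, WT replicate 1 was lowest in both, whereas Pbrm1 cKO replicate 3 was highest in those markers and lowest in Nr3c1 of its group. The part of leukocyte RNA in this result was not tested.

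The mineralocorticoid receptor gene Nr3c2 (chr8:76899442-77245012, plus strand) was hardly detected. Its reads numbered 2, 2 and 0 (WT) and 3, 6 and 2 (Pbrm1 cKO). The WT libraries were at the floor of 3 counts that a count of 0 allows, equal to between 0.216 and 0.226 CPM in that group, as library totals set it. DESeq2 filtered the gene out as too low, and no fold is given. Gm10649, on the opposite strand, shares 247 of its 6474 exon bases.

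Among the nuclear receptors, compared per kilobase of exon, Pgr took 65.2% ± 3.59 of the summed level in WT and 58.2% ± 0.82 in Pbrm1 cKO. The share of Esr1 was 22.3% ± 2.08 and 24.2% ± 0.44. That of Nr3c1 went from 12.5% ± 2.18 (WT) to 17.6% ± 0.38 (Pbrm1 cKO), all with SD and n = 3. The shares of Pgr and Nr3c1 did not overlap between groups, and those of Esr1 did. Shares are parts of 1 sum, so a rise of Nr3c1 alone lowers the share of Pgr. Normalized counts of Pgr itself overlapped and were not called (DESeq2 adjusted p = 0.245). The part of leukocyte RNA in these shares was not tested. Within each library, Pgr exceeded Esr1 by 3.11, 3.24 and 2.49 times in WT and by 2.49, 2.39 and 2.33 times in Pbrm1 cKO. WT replicate 3 thus lay at the level of Pbrm1 cKO replicate 1. The log2 ratio differed by -0.28 (exact permutation test, two-sided, p = 0.2, or 0.2 adjusted over the 3 ratios compared). With 3 libraries against 3, that test cannot give a p below 0.1.

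Of the other members of the same receptor family (5 genes), 2 were tested. Esrra, an orphan receptor active in mitochondrial metabolism, rose from 381 ± 41.9 to 514 ± 32 normalized counts (DESeq2 log2 change 0.43 ± 0.14 SE, adjusted p = 0.00673). Esrra lost its call in 3 of 16 other settings, namely without Pbrm1 cKO replicate 3, with a replicate block and in a test against a log2 fold change of 0.58. Esr2, Esrrb and Esrrg were at or under 3 counts in every library.

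PGRMC1 and PGRMC2 are heme-binding membrane proteins linked to rapid progesterone responses and to cytochrome P450 function. Pgrmc1 (chrX:36598206-36606079, plus strand) had the highest level per kilobase of the 9 genes. It was at 4153, 4268 and 4208 normalized counts in WT and at 2511, 2648 and 2691 in Pbrm1 cKO. The coefficient of variation among WT libraries was 1.38%, and all Pbrm1 cKO libraries were lower. Pgrmc1 fell to 62.2% of its WT level (4210 ± 58 against 2617 ± 94.1, SD, n = 3 each), with a DESeq2 log2 change of -0.69 ± 0.08 (SE, adjusted p = 3.91e-16). Leaving out any single library gave -0.70 to -0.65, with the call kept. The summed level of stromal markers was 0.823-fold in the same comparison, and the part of cell makeup in the fall of Pgrmc1 was not tested.

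Pgrmc2 (chr3:41066326-41083046, minus strand) was at 1011, 889 and 749 normalized counts in WT and at 777, 764 and 671 in Pbrm1 cKO. WT replicate 3 lay within the Pbrm1 cKO range, so the groups overlapped. The log2 fold change was -0.26 with an interval of -0.53 to 0.01 (DESeq2 adjusted p = 0.148). Without WT replicate 3 it was -0.37 and passed the threshold (adjusted p = 0.0125), and without WT replicate 1 it was -0.15 and did not.

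Pgrmc1 exceeded Pgrmc2, per kilobase, by 7.17, 8.38 and 9.80 times (WT) and by 5.64, 6.05 and 7.0 times (Pbrm1 cKO). The groups did not overlap. The difference of the log2 ratio was -0.43 (exact permutation test, two-sided, p = 0.1, the smallest it can give, or 0.15 adjusted over the 3 ratios). A list of 8 other genes held not only membrane progesterone receptors but also Nenf and Cyb5d2, relatives of PGRMC1, and the estrogen receptor gene Gper1. Of these 8 genes, 5 were tested and 0 were called by DESeq2, beside 31.1% of all tested genes. At an unadjusted p under 0.05 there was 1. The edgeR test called 1 higher and limma voom called 0, and DESeq2 called 1 lower without WT replicate 3 and with upper-quartile size factors. That gene was Nenf. Nenf, the highest of the list per kilobase and a neurotrophic factor of the same protein family, had 418 ± 38.7 normalized counts in WT and 339 ± 23.6 in Pbrm1 cKO (log2 change -0.30 ± 0.14 SE, adjusted p = 0.0842). With the trend over gene length removed its log2 change was -0.12, and in the 2 settings that called it the change was -0.38 and -0.36.

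The FKBP cochaperones moved in opposite directions. Fkbp4 (chr6:128429735-128438677, minus strand) was at 4778, 4312 and 5344 normalized counts in WT and at 2665, 2854 and 2752 in Pbrm1 cKO. Its Pbrm1 cKO libraries were close together and well below WT. It fell to 57.3% of the WT level (log2 fold change -0.80, 95% interval -1.01 to -0.60, DESeq2 adjusted p = 5.73e-13). Leaving out 1 library gave -0.88 to -0.72. The part of the lower stromal marker level in this fall was not tested either.

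Fkbp5 (chr17:28399095-28517524, minus strand) was at 326, 241 and 328 normalized counts in WT and at 526, 544 and 483 in Pbrm1 cKO. Each Pbrm1 cKO library was above all WT libraries. It rose 1.74-fold (298 ± 49.6 against 518 ± 31.3, SD, n = 3 each), with a DESeq2 log2 change of 0.80 ± 0.15 (SE, adjusted p = 2.77e-06). Without WT replicate 2, the lowest, the log2 fold change was 0.66, the smallest of the fits that left out 1 library, and the call was kept. Leukocytes express Fkbp5 as well, and the part of their RNA in this rise was not tested.

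Because both genes are read from the same library, their ratio does not depend on scaling between libraries. Fkbp4 exceeded Fkbp5, per kilobase, by 33.3, 40.7 and 37.1 times in the WT libraries. In the Pbrm1 cKO libraries it did so by 11.5, 11.9 and 13.0 times. Relative to WT, the ratio was 0.329 times as large in Pbrm1 cKO, a log2 difference of -1.61 (exact permutation test, two-sided, p = 0.1, the smallest it can give, or 0.15 adjusted over the 3 ratios). No library of one group came near the other, and leaving out 1 library moved the log2 difference between -1.68 and -1.54. Fkbp4 was the more abundant of the pair in every library.

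**Figure D2:**
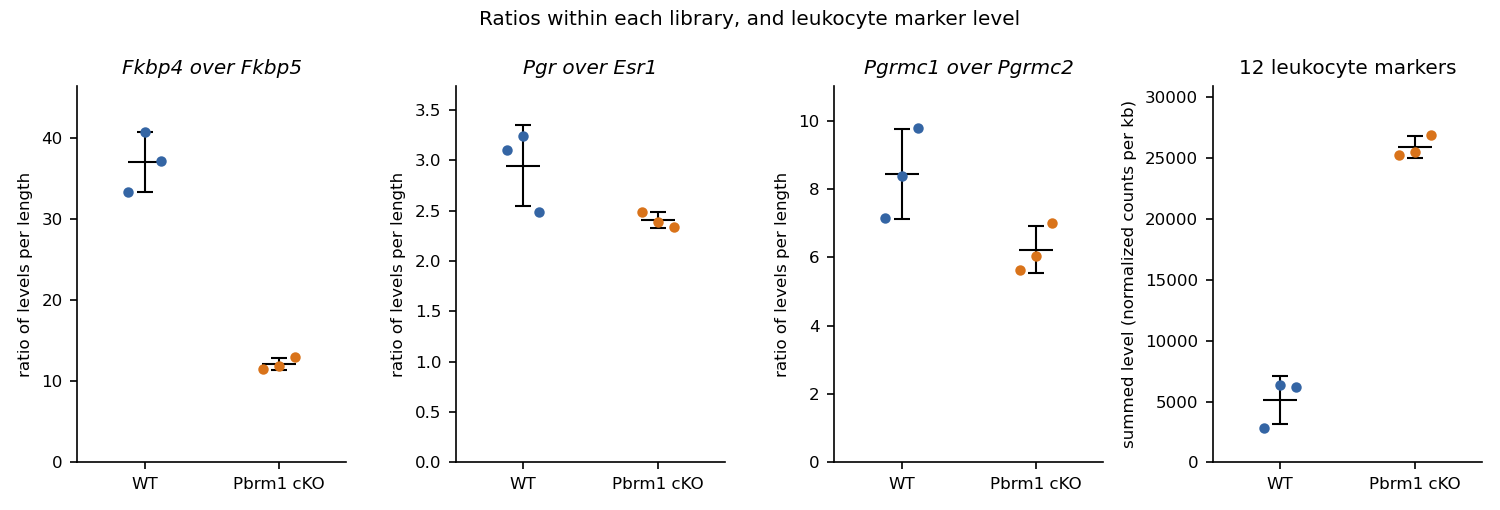
Ratio of levels per kilobase of exon within each library for 3 gene pairs (first 3 panels) and summed level of 12 leukocyte markers in normalized counts per kilobase (last panel), for WT (blue) and Pbrm1 cKO (orange); bars are means and SD of 3 libraries. The Fkbp4 to Fkbp5 ratio is 33.3 to 40.7 in WT and 11.5 to 13.0 in Pbrm1 cKO, and the leukocyte markers separate the groups in the opposite direction.

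The promoter windows of Fkbp4, Fkbp5 and Pgrmc1 are shown because these genes had the largest log2 fold changes among the 8 tested genes and went different ways. Each runs from 250 bases before to 50 bases after the RefSeq start (GRCm38.p6), 5′ to 3′ on the gene's own strand. Capitals mark matches, on either strand, to AGAACA (half-site of the progesterone and glucocorticoid receptors), AGGTCA (estrogen receptor half-site), GAANNTTC (paired heat shock units), GGGCGG (GC box), CCAAT and TATAAA. The windows are chr6:128438607-128438906 (minus strand) for Fkbp4, chr17:28486100-28486399 (minus strand) for Fkbp5 and chrX:36597943-36598242 (plus strand) for Pgrmc1.
Fkbp4: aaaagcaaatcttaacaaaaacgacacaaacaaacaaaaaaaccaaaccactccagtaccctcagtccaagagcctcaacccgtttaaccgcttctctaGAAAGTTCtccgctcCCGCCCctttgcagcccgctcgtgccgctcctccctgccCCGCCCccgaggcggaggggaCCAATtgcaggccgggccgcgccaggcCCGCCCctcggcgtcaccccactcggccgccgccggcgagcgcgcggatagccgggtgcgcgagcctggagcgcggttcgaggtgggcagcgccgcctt
Fkbp5: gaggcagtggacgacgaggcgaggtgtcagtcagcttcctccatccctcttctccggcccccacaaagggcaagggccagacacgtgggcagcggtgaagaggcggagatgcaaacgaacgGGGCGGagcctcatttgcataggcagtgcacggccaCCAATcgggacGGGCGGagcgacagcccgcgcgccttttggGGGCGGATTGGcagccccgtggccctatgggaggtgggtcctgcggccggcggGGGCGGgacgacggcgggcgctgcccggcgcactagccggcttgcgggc
Pgrmc1: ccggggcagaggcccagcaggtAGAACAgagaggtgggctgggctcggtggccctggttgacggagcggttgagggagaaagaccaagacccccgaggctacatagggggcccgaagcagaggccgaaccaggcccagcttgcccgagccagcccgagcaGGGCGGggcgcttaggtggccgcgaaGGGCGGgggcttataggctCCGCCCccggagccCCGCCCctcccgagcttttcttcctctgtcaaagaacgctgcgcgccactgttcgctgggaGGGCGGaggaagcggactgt

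All 3 windows are GC-rich, at 65.3%, 70.7% and 69% G and C with 33, 32 and 24 CpG, beside medians of 52.7% and 7 over 32851 mouse promoter windows. Fkbp4 holds 1 match to the paired heat shock units, a motif present in 7.86% of all windows. Pgrmc1 holds 1 match to AGAACA, present in 19% of all windows, and Fkbp4 and Fkbp5 hold none. GC boxes, present in 35.7% of windows, number 3 in Fkbp4, 4 in Fkbp5 and 5 in Pgrmc1. CCAAT, present in 37.4%, occurs 1 time in Fkbp4, 2 times in Fkbp5, once next to a GC box, and 0 times in Pgrmc1. None of the 3 windows holds AGGTCA (16.3% of windows) or TATAAA (13.6%). These matches are a description of the letters, not of bound sites. The Fkbp5 start used by RefSeq lies inside the gene of the count table, which extends to 28517524.

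Of 15 other FKBP family genes, 13 were tested. None was called higher and 1, Fkbp14, was lower, beside 15.9% and 15.2% of all tested genes. Without WT replicate 1 the counts were 1 higher and 3 lower, and without WT replicate 3 they were 1 higher and 2 lower. Before adjustment, 1 was higher and 3 were lower at p under 0.05, and both edgeR and limma voom called 1 higher and 1 lower. Fkbp14, a collagen-folding enzyme of the endoplasmic reticulum, fell from 1206 ± 110 to 764 ± 14.7 normalized counts (DESeq2 log2 change -0.66 ± 0.11 SE, adjusted p = 2.63e-08). Fkbp10, also a collagen chaperone and the highest of the list per kilobase, was at 3620 ± 544 and 3527 ± 114 (log2 fold change -0.04, adjusted p = 0.865). The median log2 fold change of the 13 genes was -0.17.

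The chaperones that load steroid receptors with hormone were lower in part. Of 18 genes of the HSP90 receptor cycle, 8 were called lower and none higher, beside 15.2% and 15.9% of all tested genes, with 1 higher at an unadjusted p under 0.05. The edgeR test called 0 higher and limma voom 1. The median log2 fold change was -0.16. Hspa8, the constitutive HSC70 that delivers receptors to HSP90, fell from 23842 ± 1389 to 11748 ± 252 normalized counts (DESeq2 log2 change -1.02 ± 0.08 SE, adjusted p = 2.78e-33). Bag1, an exchange factor for HSP70 proteins, fell by 0.61 on the log2 scale, and Ahsa1, which activates the HSP90 ATPase, fell by 0.36. Of the cytosolic HSP90 genes, Hsp90aa1 fell from 11823 ± 1071 to 9569 ± 241 normalized counts (log2 change -0.31 ± 0.09 SE, adjusted p = 0.00562). It was named after its values were seen, and its call was lost without Pbrm1 cKO replicate 1 (adjusted p = 0.0594) or without replicate 3 (0.0597). Hsp90ab1, the highest of the list per kilobase, was at 55745 ± 3768 and 53072 ± 2278 (log2 fold change -0.07, adjusted p = 0.613). The number called lower was 4 with a replicate block and also 4 when any single Pbrm1 cKO library was left out. The summed stromal markers were 0.823-fold and the leukocyte markers 5.05-fold in the same comparison, and their part in these falls was not tested.

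Ncoa2 (chr1:13139105-13374083, minus strand) encodes SRC-2, a coactivator that the progesterone receptor recruits in the uterus. It was at 540, 427 and 373 normalized counts in WT and at 637, 585 and 568 in Pbrm1 cKO. The lowest Pbrm1 cKO library was close above WT replicate 1. The means were 447 ± 85.1 and 597 ± 36.3 (SD, n = 3 each), and the log2 fold change was 0.42 (SE 0.15, DESeq2 adjusted p = 0.0256). This call was lost in 8 of 16 other settings. The log2 fold change was 0.21 with the trend over gene length removed (adjusted p = 0.333), 0.30 when WT replicate 3 was left out and 0.38 when WT replicate 2 was. The call was also lost without each of Pbrm1 cKO replicates 1, 2 and 3 (0.37, 0.43 and 0.46) and was kept without WT replicate 1 (0.58).

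The other coregulators of these receptors numbered 18, all tested. Of them 11 were higher and 1 was lower, beside 15.9% and 15.2% of all tested genes, and the median log2 fold change was 0.42. With the length trend removed, 10 were higher, and the median was 0.30. Ncoa3 (SRC-3) and Ncoa7, both coactivators, rose by 0.69 and 0.76 on the log2 scale. Genes for corepressors rose too, such as Ncor1 by 0.29 (DESeq2 adjusted p = 0.00429) and Safb by 0.81 (adjusted p = 1.42e-05). Phb2, a prohibitin that represses estrogen receptor activity and the highest of the list per kilobase, fell by 0.21, a call lost in 10 of 16 other settings. Leukocyte markers were higher in Pbrm1 cKO too, and the part of leukocyte RNA in these rises was not tested.

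**Figure D3:**
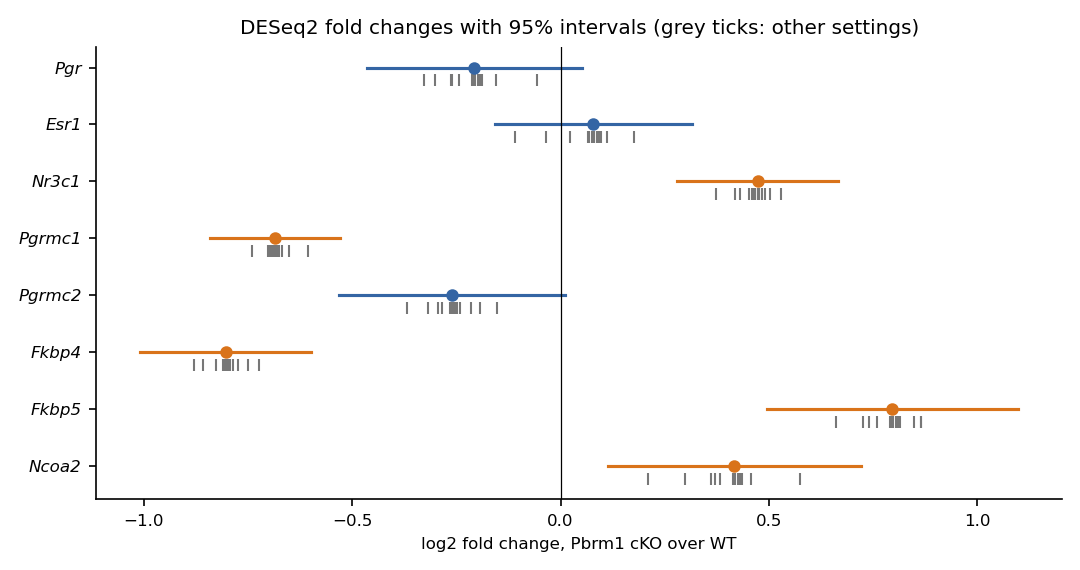
DESeq2 log2 fold change (horizontal axis, Pbrm1 cKO over WT) of the 8 tested genes with its 95% interval, orange where adjusted p was under 0.05; grey ticks are the values in 16 other settings. The intervals of Pgr, Esr1 and Pgrmc2 include 0, and the ticks of Ncoa2 reach down to 0.21.

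Genes that the glucocorticoid receptor induces in many tissues, as it does Fkbp5, moved in both directions. Of 15 such genes, 14 were tested, 3 rose and 4 fell, beside 15.9% and 15.2% of all tested genes, and the median log2 fold change was -0.12. Pdk4, a kinase that restrains pyruvate oxidation, fell from 226 ± 72.8 to 21.4 ± 2.06 normalized counts (DESeq2 log2 change -3.41 ± 0.31 SE, adjusted p = 1.67e-26). Dusp1, a MAP kinase phosphatase, fell by 1.09 on the log2 scale, and the transcription factor gene Cebpd by 1.43. The 3 genes that rose were Ddit4, Glul and Per1, by 0.92, 0.52 and 0.49 (DESeq2 adjusted p = 0.000291, 0.0022 and 0.00371). Errfi1, an inhibitor of EGF receptor signaling and the highest of the list per kilobase, was at 21482 ± 3957 and 22019 ± 752 (log2 fold change 0.04, adjusted p = 0.882). In the same comparison the summed leukocyte markers were 5.05-fold, the endothelial 0.448-fold and the stromal 0.823-fold. The part of cell makeup in the changes of this list was not tested.

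**Figure D4:**
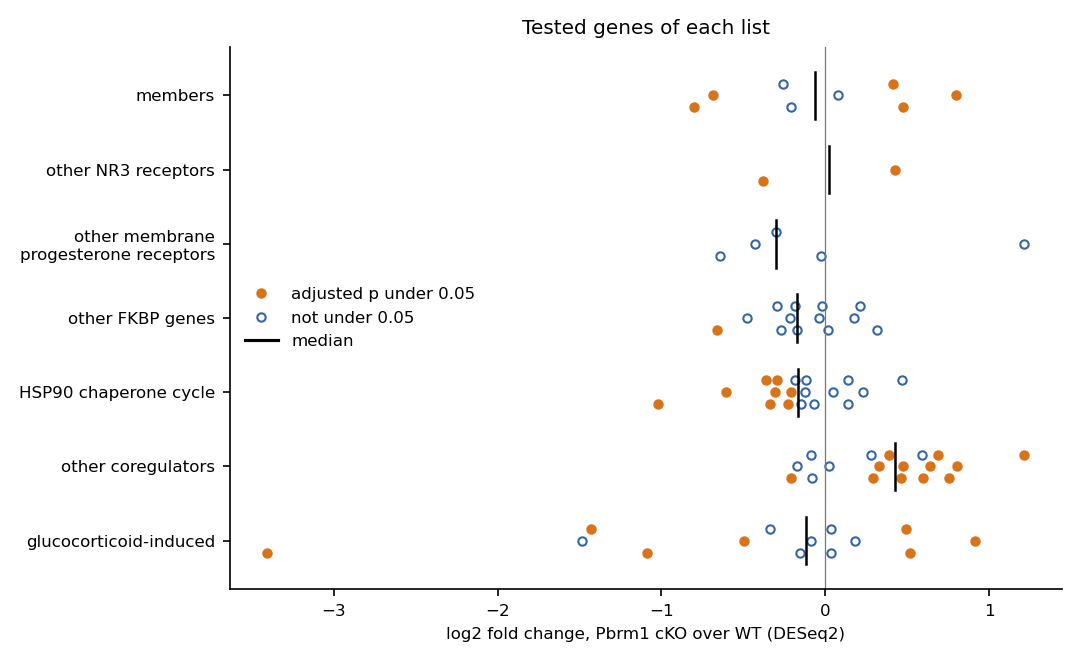
DESeq2 log2 fold change (horizontal axis, Pbrm1 cKO over WT) of every tested gene in the 9-gene set (members) and in 6 related lists; filled points passed an adjusted p of 0.05, and vertical bars are medians. Other coregulators lie mostly to the right of 0 (median 0.42), and genes of the HSP90 cycle mostly to the left (median -0.16).

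Ordered by level per kilobase in WT, the genes ran from Pgrmc1 (2267) and Fkbp4 (1721) through Pgr (875), Esr1 (298), Pgrmc2 (272) and Nr3c1 (165) to Fkbp5 (46.9), Ncoa2 (28.6) and Nr3c2 (0.22). Esr1 and Pgrmc2 overlapped, and the other neighbours did not. In Pbrm1 cKO the order was Pgrmc1 (1409), Fkbp4 (986), Pgr (758), Esr1 (315), Nr3c1 (228), Pgrmc2 (227), Fkbp5 (81.4), Ncoa2 (38.1) and Nr3c2 (0.50). Only Nr3c1 and Pgrmc2 changed places, and their levels overlapped in Pbrm1 cKO. The coefficient of variation was larger among WT than among Pbrm1 cKO libraries for every tested member except Pgrmc1, for example 17.6% and 6.30% for Pgr and 19.1% and 6.08% for Ncoa2. For Pgrmc1 it was 1.38% and 3.60%. Over genes with at least 10 counts in at least 3 libraries, the biological coefficient of variation was 0.165 among WT and 0.0469 among Pbrm1 cKO libraries. The median squared deviation between 2 libraries was 3.68 to 7.95 times that of sampling noise in WT and 1.55 to 2.54 times in Pbrm1 cKO.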

How the data were processed

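RNA-Seq counts came from 3 WT and 3 Pbrm1 cKO libraries. Per the study's methods and the file header, single-end reads were trimmed by the authors (cutadapt), aligned to GRCm38 (HISAT2) and counted on GENCODE mouse release 18 with featureCounts 1.6.4 in strand-specific mode. The deposited values are raw counts and exon lengths per gene, not normalized. Labels and methods name different library kits, with depletion or mRNA purification, so the captured RNA classes are not settled. Copies of 50 bases shared with other transcripts were at most 1.43% of any member (Fkbp4).

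All 28552 genes with a count were fitted with DESeq2 (1.42.0, R 4.3.3; Wald statistic without covariates, Benjamini-Hochberg threshold 0.05 over 17474 tested genes). Levels between genes are normalized counts per kilobase. Ratios used log2 of counts plus 0.5 per length and exact permutation tests. A count of 0 allows up to 3 counts. Intervals are 95% intervals, and limits on counts cover counting error only.

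The members and gene lists were chosen with earlier results of these data known. Named from each related list were the 3 genes with the smallest adjusted p past the threshold and the 1 with the highest level per length, and from marker lists at most 3 by level. Some genes that fall under this rule are not reported here. The pipeline was tested on simulated data. Alternatives were edgeR 4.0.16, limma 3.58.1 (voom, spread estimated per group), other size factors and filters, a test against a log2 fold change of 0.58, removal of a trend over gene length, a replicate block and leaving out each library. Library totals as size factors were added after seeing the data.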

Additional observations from a re-analysis of the deposited data

How the results depend on the processing

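Fkbp4, Fkbp5, Nr3c1 and Pgrmc1 kept direction and call in 15 of 16 other settings each. The exception was DESeq2's test against 0.58 (log2, with adjusted p under 0.1), which called 699 genes higher, 563 lower, and 0 of the 9 members higher and 0 lower, with 1 member lower at an unadjusted p under 0.05 (edgeR and limma voom, testing against 0, each called 3 higher and 2 lower). Leaving out 1 library gave 2 to 4 members lower, 2 to 3 higher, and 1928 to 2915 genes higher and 1806 to 2648 lower. The sign of Esr1 turned with the length trend removed (-0.11) and over libraries left out (-0.036 to 0.18). So did that of Fkbp10 (0.014, and -0.15 to 0.075) and, with upper-quartile size factors, of Errfi1 (-0.022, and -0.077 to 0.19 over libraries left out). The cause of these turns was not tested. With a replicate block, 2175 genes were higher and 1828 lower, and 3 members were higher and 2 lower. Equal replicate numbers did not pair the samples, since deviations of same-numbered libraries correlated at -0.0692, 0.0546 and -0.0824 and not every library correlated best with its own number. Leaving out 1 library left the direction of the 3 ratios as it was. The ratio of Nr3c1 to Nr3c2 was not computed, because Nr3c2 was at the floor in WT. At this depth, Nr3c2 could not be compared between groups.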
